A study of Mus musculus with 12 samples.

Results

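The genes described here are 51 genes that act in S phase, the part of the cell cycle in which DNA is copied. They were listed by function, in 8 role groups that run from origin licensing to nucleotide supply, and each is represented by its brightest probe set among those annotated to that gene alone. Of the 51 genes, 50 have such a probe set, out of 18194 genes represented in this way. Chaf1a is unnamed here and has no value. All 50 lay above the filter on dim probe sets, which kept 12673 genes for testing.

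The cells are I/11, a mouse pro-erythroblast line derived from p53-null fetal liver that multiplies in serum-free medium with erythropoietin, stem cell factor and dexamethasone. The 3 groups all carried a puromycin-selectable pLKO lentiviral shRNA as a stable infection: sh14 and sh133, which are different hairpins against Plcg1 (phospholipase C gamma 1, a signalling enzyme), and scr, a scrambled control. Each line was measured on 4 Affymetrix mouse expression arrays, 1 each at 1, 6, 12 and 22 h, and what the hours are counted from is not stated. The study's title names erythropoietin receptor signalling through Jak2 in erythroid differentiation, and the comparisons here are between the lines, between the times, and between the time courses of the lines. All values are deposited log2 probe set signals, so a difference of 1 stands for a 2-fold difference in signal. No label states separate cultures for the arrays of a line. The p-values of line and time comparisons rest on the spread that additive terms for line, time and array run leave. Those of slopes rest on the spread left by a level and a slope for each line and the array run.

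Before S phase, the origin recognition complex with Cdc6 and Cdt1 loads the Mcm2 to Mcm7 ring onto DNA, and geminin (Gmnn) blocks further loading once copying has begun. Cdc45 and the GINS complex turn the ring into an active helicase, primase and polymerase alpha start each strand, and polymerases delta and epsilon extend it on the sliding clamp Pcna, which the RFC complex loads. Many of these genes are transcribed together as cells enter S phase, under E2F transcription factors. Erythroid progenitors divide several times while they mature, so these genes are also read as a measure of proliferation in this tissue.

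Promoter sequences show one feature that the list was not chosen on. RefSeq promoters (assembly GRCm38.p6, 250 bases before to 50 after a gene's start) were found for 42 of the 51 genes, which have 50 promoters between them. Perfect matches to any of the 8-base E2F motifs TTTGGCGC, TTTCCCGC, TTTGCCGC and TTTCGCGC, on either strand, occurred in 16 of these 50 promoters (32.0%). The share was 2.26% of all 32851 promoters of the table and 3.83% of the 13036 promoters of tested genes. The motifs can overlap each other where a site reads as a motif on both strands. Stretches with matches are shown, in the sense direction of the gene, because they come from the licensing factors whose signals are described below. Capitals mark the matched motifs.
Cdc6, chr11:98907971-98908070, plus strand: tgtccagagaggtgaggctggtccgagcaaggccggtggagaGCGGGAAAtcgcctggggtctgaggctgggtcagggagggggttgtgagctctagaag
Mcm6, chr1:128359716-128359855, minus strand: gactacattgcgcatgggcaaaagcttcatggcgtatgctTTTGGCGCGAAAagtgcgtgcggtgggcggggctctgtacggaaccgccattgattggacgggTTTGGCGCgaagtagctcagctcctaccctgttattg
Mcm5, chr8:75109319-75109418, plus strand: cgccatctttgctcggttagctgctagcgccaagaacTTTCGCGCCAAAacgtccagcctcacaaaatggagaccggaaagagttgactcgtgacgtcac
Orc1, chr4:108579354-108579453, plus strand: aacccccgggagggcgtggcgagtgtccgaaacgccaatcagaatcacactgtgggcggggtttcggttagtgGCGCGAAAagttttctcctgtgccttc

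Cdc6 carries a single match on the strand opposite to the gene, and in Mcm6 and Mcm5 forward and reverse motifs share bases. A match is a description of letters in this window and not a measured binding site. Among genes of other replication functions (checkpoint, fork protection, chromatin assembly and the like), 18 of 51 promoters held a match (35.29%). Promoters of genes of G2 phase and mitosis held one in 3 of 48 cases (6.25%). The CCAAT motif, the NF-Y sequence typical of mitotic genes, showed another order, with 60% of the promoters of the S phase genes, 43.14% of those of the other replication genes, 81.25% of those of the G2 and mitosis genes and 37.41% of all promoters.

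**Figure D1:**
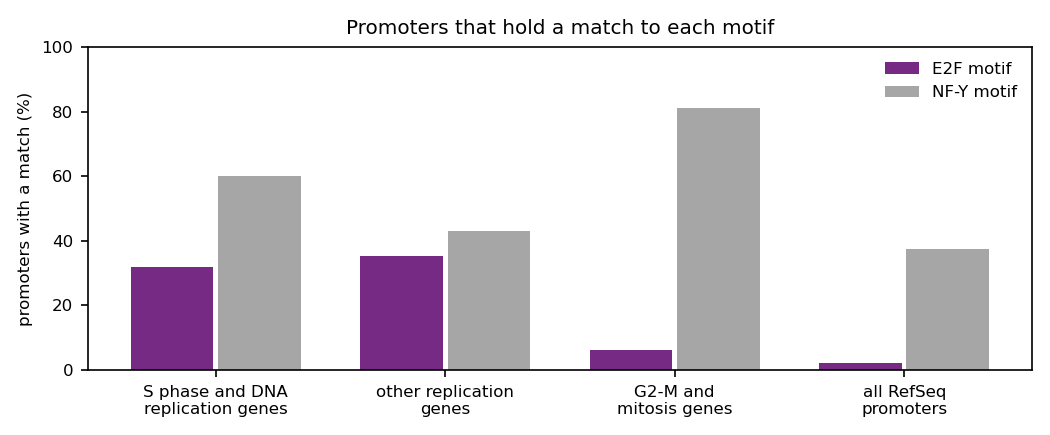
Share of RefSeq promoters (percent, vertical axis) that hold an E2F motif (purple bars) or the CCAAT motif, labelled NF-Y (grey bars), for each gene list and for all promoters. The E2F motifs stand in 32.0% of the promoters of the S phase genes, against 6.25% for G2 and mitosis genes and 2.26% of all promoters. Promoters of tested genes, not drawn, have a share of 3.83%.

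Array medians lay between 1.84 and 1.92 and array pairs correlated between 0.983 and 0.997 over all probe sets, so no array stood apart by these measures. The titles of the arrays differ in a date, of which there are 2, and these are treated as runs although nothing states what they mark. The 4 sh14 arrays belong to run 1 together with the 6 h and 12 h arrays of sh133, and the 4 scr arrays belong to run 2 together with the 1 h and 22 h arrays of sh133. No sh14 array shared a run with an scr array, and only sh133 has arrays in both runs. In the fits of lines and times, the run term compares 1 h and 22 h with 6 h and 12 h in sh133. It sets this against the same contrast in sh14 and scr, so a time course particular to sh133 enters the term. In the slope fits the run term rests on sh133 alone. The Plcg1 signal itself was 4.16, 3.86, 4.27 and 4.30 in sh14 at 1, 6, 12 and 22 h, 4.53, 4.35, 4.37 and 4.39 in sh133, and 4.74, 4.45, 4.61 and 4.31 in scr. Sh14 lay below both other lines at every time. Sh133 lay below scr at 1, 6 and 12 h and above it at 22 h. Of the 6 tested erythroid markers, Tfrc, Klf1 and Gata1 were the brightest in sh14, at means of 10.0, 9.11 and 8.12. Alas2 averaged 4.36 in sh14, 6.47 in sh133 and 5.43 in scr, and Slc4a1 averaged 6.65, 7.66 and 7.16. Both were lower in sh14 than in either other line in limma's test after adjustment. Gata1, Klf1, Epor and Tfrc passed in neither comparison. The probe set of alpha globin Hba-a1 was below the filter. Of the 4 macrophage markers, Adgre1 and Cd68 were below the filter, and Csf1r and Lyz2 lay just above it, at means of 2.48 and 2.39 in sh14.

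Most of the S phase genes were bright. Pcna was at the 99.6th percentile of tested genes by mean level, Mcm7 at the 98.5th, Mcm5 at the 97.5th and Rpa1 at the 97.2nd, and Tyms was the dimmest at the 18.3rd. Apart from the marker sums and the choice of the brightest genes below, levels of different probe sets are not compared further, since each probe set has its own brightness per transcript.

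The median time course was steepest in scr. In sh14, 46 of the 50 genes were lower at 6 h than at 1 h, 46 were higher at 12 h than at 6 h, and the median difference between 22 h and 1 h was 0.03. In sh133, 46 genes were higher at 12 h than at 6 h, by a median of 0.14, and the median difference between 22 h and 1 h was 0.11. In scr, all 50 genes were higher at 12 h than at 6 h, by a median of 0.53, and 49 were higher at 22 h than at 1 h, by a median of 0.58. Over all tested genes these medians lay within 0.05 of 0. A line has 1 array per time, so these steps are descriptions with no test. In bulk RNA, fewer cells in S phase and less of these RNAs per cell cannot be told apart.

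The 6 h to 12 h step lies within an array run in each line. In scr it was lowest for Gins3, at 0.15, and highest for Chaf1b, a chromatin assembly subunit, at 1.20. Thymidine kinase Tk1 differed by 1.02 in this step, the ribonucleotide reductase subunit Rrm2 by 0.98, cyclin E2 (Ccne2) by 0.95 and the chromatin factor Uhrf1 by 0.91. By role, the median step in scr was 0.91 for chromatin copying and histone mRNA, 0.65 for helicase activation, 0.63 for nucleotide supply and 0.37 for polymerases and primase. No role group was flat in scr in this step. The same medians were 0.26, 0.16, 0.16 and 0.11 in sh14, and 0.14, 0.10, 0.07 and 0.09 in sh133.

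**Figure D2:**
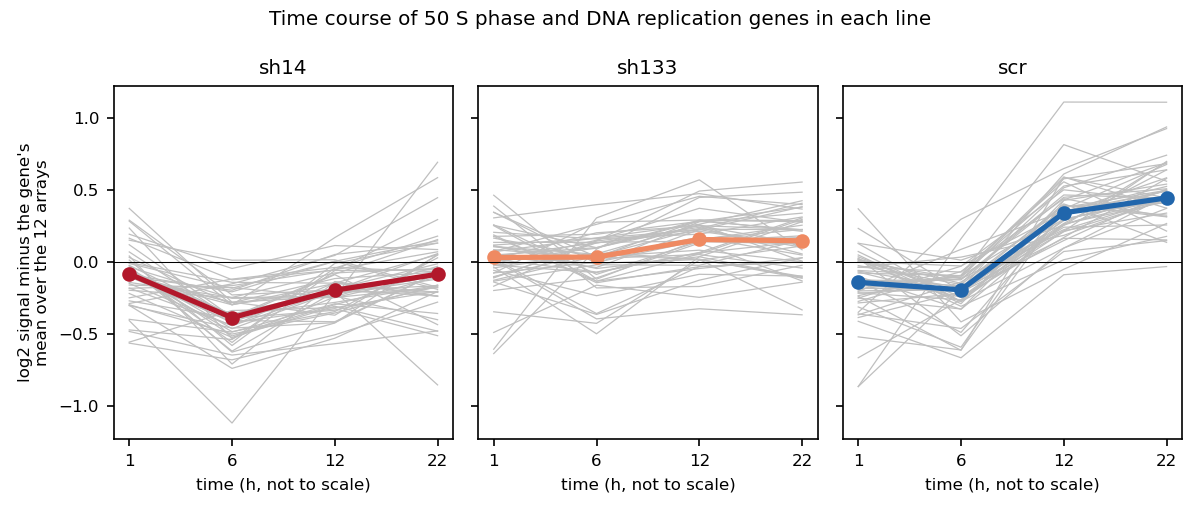
Log2 signal relative to each gene's mean over the 12 arrays (vertical axis) by time (horizontal axis, hours, not to scale) in sh14, sh133 and scr, with 1 thin line per gene and a thick line for the median. The scr median is -0.14 at 1 h and 0.44 at 22 h, while the sh14 median is lowest at 6 h, at -0.39.

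Relative to each gene's own mean over the 12 arrays, the median of the S phase genes in sh14 was -0.08, -0.39, -0.20 and -0.09 at 1, 6, 12 and 22 h. In sh133 it was 0.03, 0.03, 0.16 and 0.15, and in scr -0.14, -0.19, 0.34 and 0.44. Most genes of sh14 had their lowest value at 6 h (37 of 50), and their highest value was at 22 h for 25 and at 1 h for 21. In scr, 37 genes were highest at 22 h, while the highest values of sh133 were spread over 22 h (19 genes), 12 h (16) and 1 h (14). The median sh14 minus scr difference was 0.03 at 1 h, -0.13 at 6 h, -0.55 at 12 h and -0.52 at 22 h. Sh133 minus scr had medians of 0.18, 0.23, -0.17 and -0.29 at these times. The 1 h and 22 h values of that pair come from run 2 in both lines, and at 22 h 47 of the 50 genes were lower in sh133.

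**Figure D3:**
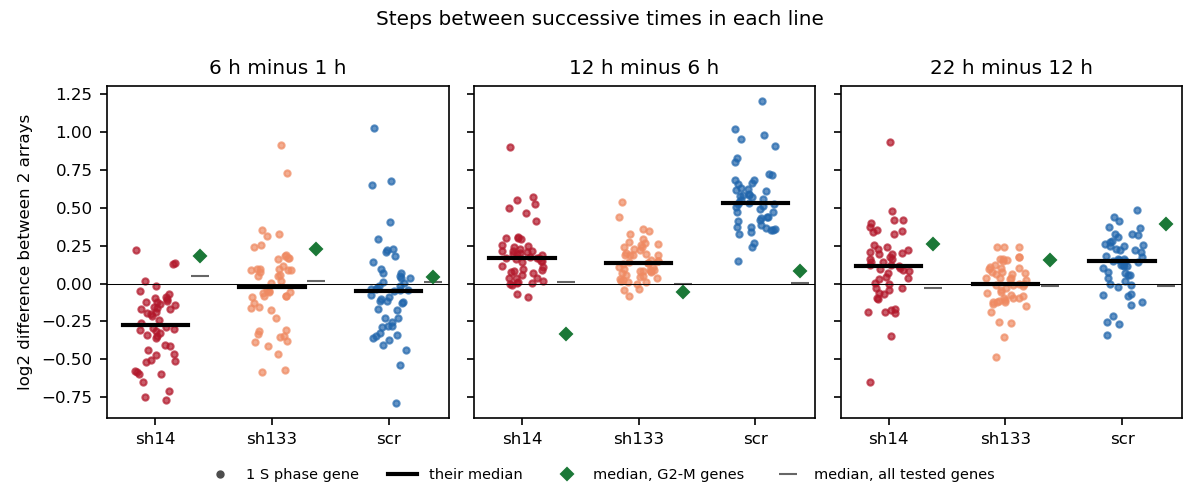
Difference in log2 signal between consecutive times (vertical axis) in sh14, sh133 and scr, with 1 point per S phase gene, black lines for their medians, green diamonds for the median of the G2 and mitosis genes and grey dashes for all tested genes. The first and last steps of sh133 cross array runs. Between 6 h and 12 h the median of the S phase genes was 0.17 in sh14, 0.14 in sh133 and 0.53 in scr.

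Averaged over the 3 lines, 6 of the 50 genes rose between 1 h and 22 h in limma's test after Benjamini-Hochberg adjustment, and none fell. Of all genes tested, 8.74% rose. The direction was shared more widely than the calls. Differences were above 0 in 43 of 50 genes, with a median of 0.26, against 53.5% of all genes and a median of 0.02. An unadjusted p under 0.05 was found for 24 of the 50 genes and 4036 of all 12673.

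Cdc6, which loads the MCM ring at origins, gave the largest difference of the 50. Its signal was 6.53, 6.46, 6.96 and 7.18 in sh14 at 1, 6, 12 and 22 h, 6.36, 7.09, 7.45 and 7.48 in sh133, and 6.14, 6.81, 7.61 and 7.94 in scr. In every line both later arrays were above both earlier ones. The 22 h minus 1 h difference was 1.19 ± 0.19 (SE, 3 arrays at each time; adjusted p = 0.0019), a 2.28-fold higher signal. Rfc2, a subunit of the clamp loader, had 8.25, 8.39, 8.59 and 8.99 in sh14, 8.41, 8.58, 8.77 and 8.95 in sh133, and 8.18, 8.08, 8.61 and 8.69 in scr. All 3 arrays at 22 h were above all 3 at 1 h, and the difference was 0.59 ± 0.10 (adjusted p = 0.0029).

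Rrm2, the regulated subunit of the ribonucleotide reductase that makes DNA precursors, had 8.59, 8.01, 8.48 and 8.89 in sh14 at the 4 times, 7.96, 7.88, 8.32 and 8.42 in sh133, and 7.79, 7.70, 8.67 and 8.98 in scr. Its 1 h value in sh14 exceeded the 22 h value in sh133, so the times overlapped across lines although each line was higher at 22 h. The fitted difference was 0.65 ± 0.17 (adjusted p = 0.0276). Fen1, the flap nuclease that trims Okazaki fragments, rose by 0.49 ± 0.12 (adjusted p = 0.0174). The others were Ccne1, a cyclin that starts S phase, at 0.68 ± 0.20 (adjusted p = 0.0417), and E2f2, a transcription factor of these genes, at 0.40 ± 0.12 (adjusted p = 0.0405). The Ccne1 call held in 9 of 20 alternatives and the E2f2 call in 10 of 20. Ccne2 had a difference of 0.98 and an adjusted p of 0.051.

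E2f2 had a dip before its late values. It had 6.48, 5.71, 6.00 and 6.94 in sh14, 6.21, 5.75, 6.28 and 6.52 in sh133, and 6.27, 5.73, 6.34 and 6.70 in scr at the 4 times. All 3 lines were lowest at 6 h and highest at 22 h. Leaving out the scr array at 1 h left 2 of the 6 calls, Cdc6 and Rfc2, in a fit that called 15.1% of all genes in either direction. Without scr at 22 h, sh133 at 1 h or sh133 at 22 h 3 genes were called. In the first case 1 of them (Pola1) was lower. Without sh14 at 1 h there were 13. Those fits, in that order, called 15.1%, 9.04%, 9.04% and 17.9% of all genes. With a variance prior that follows the mean signal, 11 genes passed, as did 18.8% of all genes.

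A slope on hours was also fitted within each line. It is the change in log2 signal per doubling of hours, and these counts were added after the data were seen. No gene of the 50 passed for sh14, where the median slope was -0.005 and 2.51% of all genes rose. An unadjusted p under 0.05 was reached by 2 of the 50 and 2192 of all 12673 genes. In sh133 Cdc6 alone rose, with a median slope of 0.03 over the 50 genes and 2.08% of all genes rising. In scr 8 genes rose (Ccne1, Ccne2, Cdc6, Fen1, Mcm2, Orc2, Pola2 and Pole2), while 2.67% of all genes rose. Among the 8 were Cdc6 at 0.41 ± 0.06 and Pole2 at 0.28 ± 0.04 (limma adjusted p = 0.00317 and 0.00225). Of the 50 slopes 49 were above 0, with a median of 0.13. In 30 of the 50 genes, and in 2833 of all 12673, the unadjusted p was under 0.05. The scr count depended on single arrays: it was 0 without scr at 1 h, 3 without scr at 22 h and 13 without scr at 6 h. Of all genes, 0.253%, 4% and 6.85% were called in either direction in these fits. Cdc6 lost its call in sh133 without any 1 of the 4 sh133 arrays, without sh14 at 12 h and without scr at 12 h.

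The tests of the differences between these slopes called none of the 50 genes. For sh14 minus scr the slope was lower in 48 genes, by a median of 0.14. An unadjusted p under 0.05 was seen for 17 of the 50 genes and 1794 of all 12673. Only 0.00789% of all genes were called in this limma comparison. For sh133 minus scr 48 slopes were lower, by a median of 0.11, and 0.0237% of all genes were called. Here 9 of the 50 genes and 968 of all 12673 had an unadjusted p under 0.05. For sh14 minus sh133 there were 40 lower, with a median of -0.04, and 0.0158% of all genes were called. There 1 of the 50 genes and 953 of all 12673 had an unadjusted p under 0.05. The hairpin comparisons with scr share the scr arrays. With the variance prior that follows the mean, Pole2 passed in the first comparison.

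Between the hairpins, S phase genes were lower in sh14. Of the 50, 9 fell in sh14 against sh133 and none rose, where 7.11% of all tested genes fell. Differences were below 0 in 46 of 50 genes with a median of -0.33, against 49.8% of all genes and a median of 0.00. The unadjusted p was under 0.05 in 24 of the 50 genes and in 3520 of all 12673. All 4 sh14 arrays lay below all 4 sh133 arrays in 19 genes (38%), as they did in 10.69% of all tested genes. The genes that fell come from 5 of the 8 role groups: 2 of 12 in MCM loading (Gmnn, Orc2), 3 of 6 in helicase activation (Mcm10, Cdc45, Gins4), 2 of 6 in clamp and loader (Pcna, Rfc4), 1 of 5 in strand joining (Fen1) and 1 of 5 in nucleotide supply (Rrm1). None of the 9 polymerase and primase genes, the 3 chromatin copying genes or the 4 regulators of S phase entry passed.

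**Figure D4:**
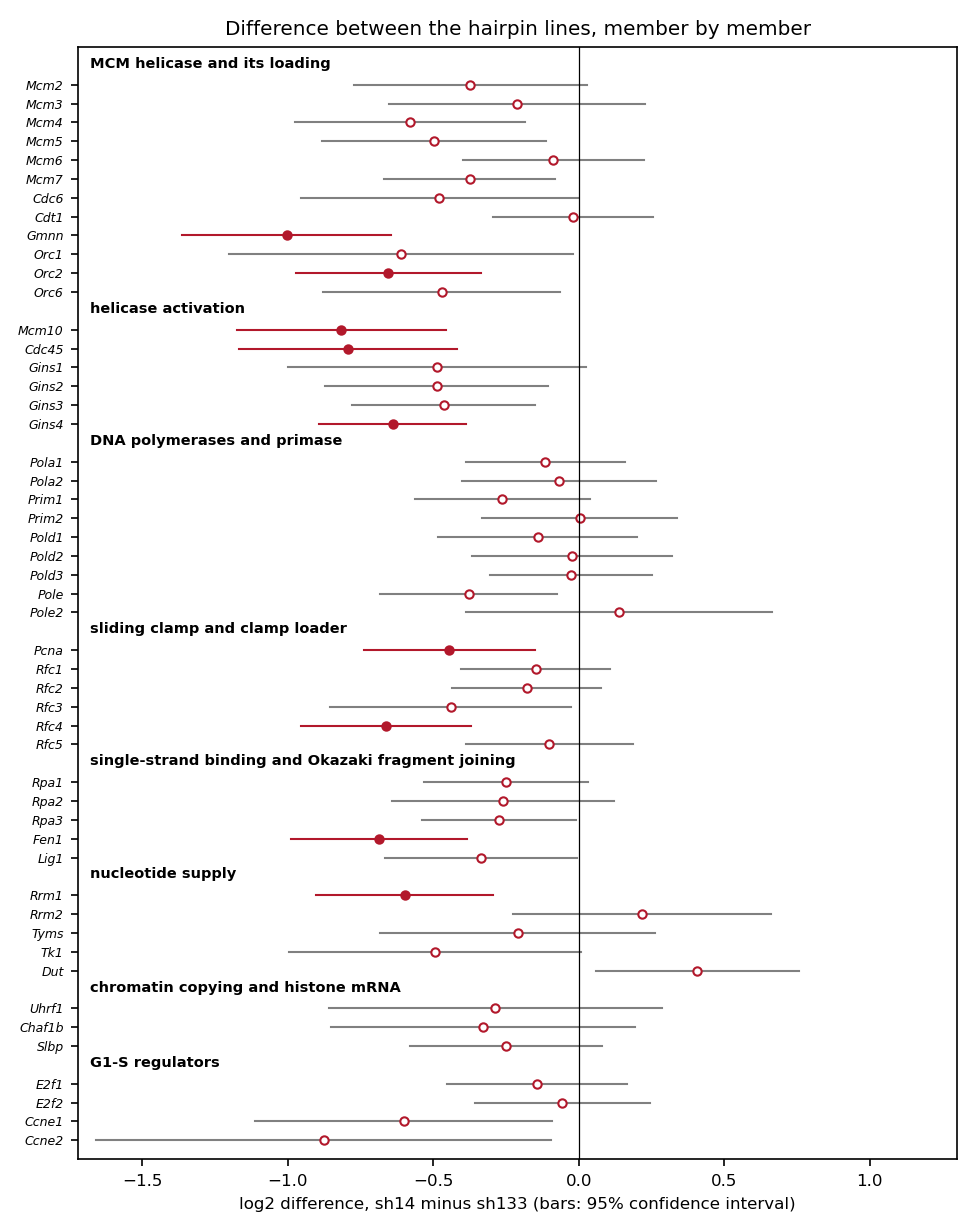
Difference in log2 signal, sh14 minus sh133, for each of the 50 genes (horizontal axis) with its 95% confidence interval from limma, grouped by role (vertical axis), with filled red points for genes past the adjusted threshold. The 9 genes past the adjusted threshold lie between -1.0 for Gmnn and -0.45 for Pcna, and Dut is highest at 0.41.

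Gmnn, the geminin gene whose product holds back Cdt1, differed most. It had 7.68, 7.51, 7.59 and 7.68 in sh14 at 1, 6, 12 and 22 h, 8.46, 8.55, 8.63 and 8.52 in sh133, and 8.00, 8.04, 8.62 and 8.60 in scr. Every sh14 array was below every array of both other lines, and the sh14 minus sh133 difference was -1.0 ± 0.16 (adjusted p = 0.0030). Orc2, a subunit of the origin recognition complex, had 6.5, 6.41, 6.61 and 6.54 in sh14, 6.82, 7.18, 7.19 and 7.19 in sh133, and 6.70, 6.99, 7.25 and 7.42 in scr. Its sh14 arrays were again the lowest of all, at -0.65 ± 0.14 against sh133 (adjusted p = 0.0129).

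None of the 6 ring subunits passed, although all 6 differences were below 0. They were -0.58 ± 0.18 for Mcm4 (adjusted p = 0.0546), -0.50 ± 0.17 for Mcm5, -0.38 ± 0.13 for Mcm7, -0.37 ± 0.18 for Mcm2, -0.21 ± 0.20 for Mcm3 and -0.09 ± 0.14 for Mcm6. Mcm5 and Mcm6, whose promoter stretches are printed above, thus stand near the ends of this range. Of the loading factors with a printed stretch, Orc1 differed by -0.61 ± 0.27 (adjusted p = 0.166) and Cdc6 by -0.48 ± 0.21 (adjusted p = 0.178). Cdt1, the loader that geminin inhibits, differed by -0.02 ± 0.12, the smallest value of the 12 loading genes.

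The helicase activation genes had lower signals in sh14 throughout, with all 6 differences from sh133 between -0.82 and -0.46. Mcm10, which helps to start the loaded helicase, had 5.51, 5.07, 5.28 and 5.61 in sh14, 5.80, 5.96, 6.18 and 6.09 in sh133, and 5.73, 5.72, 6.34 and 6.45 in scr, with a difference from sh133 of -0.82 ± 0.16 (adjusted p = 0.0084). Cdc45, a helicase cofactor, had 5.12, 5.01, 5.18 and 5.41 in sh14, 5.86, 5.88, 5.97 and 6.06 in sh133, and 5.53, 5.58, 6.26 and 6.37 in scr, with a difference of -0.79 ± 0.17 (adjusted p = 0.0115). In both genes no sh14 array reached an array of either other line. Gins4, a GINS subunit, had 6.76, 6.55, 6.70 and 6.89 in sh14, 7.17, 7.22, 7.28 and 7.44 in sh133, and 7.07, 6.84, 7.20 and 7.53 in scr. Sh14 and sh133 did not overlap for Gins4, while sh14 at 22 h was above scr at 6 h, and the sh14 minus sh133 difference was -0.64 ± 0.11 (adjusted p = 0.0051).

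Pcna, the sliding clamp, had 10.83, 10.71, 10.77 and 10.93 in sh14, 11.19, 11.13, 11.26 and 11.33 in sh133, and 11.04, 11.00, 11.44 and 11.60 in scr. Its sh14 arrays lay below all others, and the difference from sh133 was the smallest of the 9, at -0.45 ± 0.13 (adjusted p = 0.0481). The Pcna call held in 9 of 21 alternatives, with adjusted p-values of 0.00831 to 0.37. Rfc4, a clamp loader subunit, had 8.34, 7.74, 7.94 and 8.41 in sh14, 8.25, 8.51, 8.59 and 8.59 in sh133, and 8.40, 8.12, 8.53 and 8.94 in scr. Sh14 overlapped both other lines through its 1 h and 22 h arrays, and differed from sh133 by -0.66 ± 0.13 (adjusted p = 0.0083). Without the run term this difference was -0.38 and did not pass (adjusted p = 0.0642).

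Fen1 had 8.25, 8.47, 8.49 and 8.60 in sh14, 8.88, 9.07, 9.26 and 9.20 in sh133, and 8.44, 8.67, 9.10 and 9.25 in scr, with a difference from sh133 of -0.69 ± 0.14 (adjusted p = 0.0083). Its sh14 arrays did not overlap those of sh133 and overlapped scr at 1 h. Rrm1, the large ribonucleotide reductase subunit, had 8.37, 8.21, 8.25 and 8.60 in sh14, 8.88, 8.83, 8.87 and 8.98 in sh133, and 8.60, 8.43, 8.94 and 9.12 in scr. The groups sh14 and sh133 did not overlap, and the difference was -0.60 ± 0.14 (adjusted p = 0.0164).

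**Figure D5:**
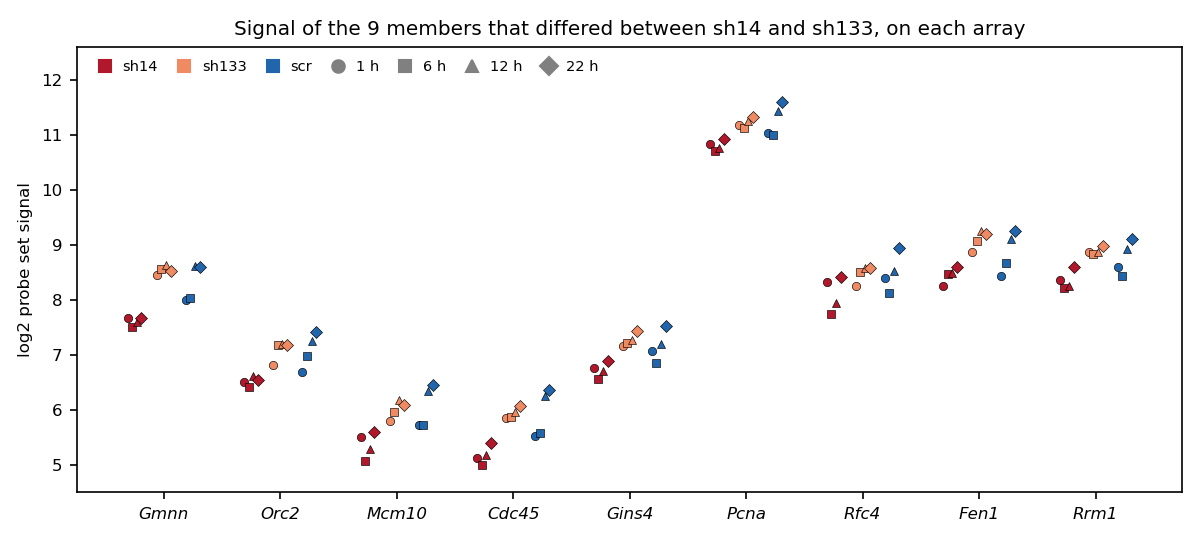
Log2 signal (vertical axis) of the genes that passed in sh14 minus sh133, 1 point per array with its shape giving the time, in sh14, sh133 and scr from left to right. The sh14 points lie below the sh133 points in each gene except Rfc4, whose sh14 values of 8.34 and 8.41 exceed the sh133 value of 8.25.

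The brightest gene of each role gives the range of patterns around these calls. Mcm7, of the helicase ring, had 9.81, 9.60, 9.60 and 9.76 in sh14, 10.01, 9.88, 10.02 and 9.90 in sh133, and 9.86, 9.57, 9.94 and 10.22 in scr, so sh14 lay below sh133 at every array without passing the test. Rpa1, the large subunit of the single-strand binding protein, had 9.10, 9.00, 9.17 and 9.20 in sh14, 9.17, 9.24, 9.39 and 9.41 in sh133, and 9.08, 9.04, 9.45 and 9.68 in scr. Slbp, which binds the stem-loop of histone mRNA, had 8.87, 8.56, 8.79 and 8.96 in sh14, 8.95, 8.90, 9.04 and 9.28 in sh133, and 8.76, 8.80, 9.32 and 9.47 in scr. For Rpa1 and Slbp the lines overlapped.

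In sh14 minus sh133, 4 genes had a difference above 0, namely Dut (0.41), Rrm2 (0.22), Pole2 (0.14) and the primase subunit Prim2 (0.00). Prim1, the other primase subunit, differed by -0.26 there. It had 8.37, 8.08, 8.15 and 8.50 in sh14, 8.27, 8.37, 8.47 and 8.63 in sh133, and 7.79, 7.54, 8.12 and 8.17 in scr. It was the only gene of the 50 (2.0%) whose sh133 arrays were all above the scr arrays. Of all tested genes, 6.3% had that order. The sh133 minus scr difference was 0.43 with an adjusted p of 0.115 in limma, and 0.53 (adjusted p = 0.00627) without the run term. Dut, which keeps uracil out of DNA, had 8.93, 8.70, 8.86 and 8.83 in sh14, 8.76, 8.35, 8.42 and 8.38 in sh133, and 8.74, 8.71, 9.08 and 9.15 in scr. Its sh14 minus sh133 difference was the highest of the 50, at 0.41 (adjusted p = 0.117), and 0.35 without the run term (adjusted p = 0.042). A dimmer Dut probe set gave -0.13 as the mean difference over matched times, against 0.35 for this one.

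The 6 h and 12 h arrays of sh14 and sh133 share run 1. Fitted on those 4 arrays alone, 24 of the 50 genes passed, 23 of them lower in sh14, and all 9 named above were among them, while 18.7% of all genes passed. With terms for line and time, 4 arrays leave hardly any spread of their own. The p-values of that fit therefore rest mainly on the variances moderated across genes. These arrays are also part of the main fit, so the shared calls are not separate support. The median difference within that run was -0.34 at 6 h and -0.37 at 12 h, against -0.09 at 1 h and -0.19 at 22 h, where the lines lie in different runs. Single arrays moved the count of 9, and the share of all genes called in either direction moved too. The count was 0 without sh133 at 6 h (3.26% of all genes). It was 2 (Gins4 and Gmnn) without sh133 at 12 h (3.08%) or sh14 at 12 h (7.1%). It was 16 without sh14 at 1 h (17.4%) and 17 without scr at 1 h (16.8%). Without the run term 14 passed, 8 of them shared, in a fit that called 24.7% of all genes.

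Cell type markers and a measure of RNA quality were also compared between the lines, and only some markers differed between sh14 and sh133. Marker differences in brackets are sh14 minus sh133. The mast cell markers Fcer1a (3.12), Ms4a2 (1.87) and Cpa3 (0.84) were higher in sh14, 3 of the 5 tested of 6 listed, with Mcpt8 below the filter in all lines. Over the 6 mast cell and basophil markers, summed linear signal ranged from 90.1 to 362.1 in sh14, 46.8 to 488.0 in sh133 and 75.5 to 727.6 in scr. Hdc, by far the brightest of them, weighs most in these sums. Its means were 7.21 in sh14, 6.83 in sh133 and 7.91 in scr, and its sh14 minus sh133 difference of 0.72 did not pass. Of 6 tested erythroid markers, Alas2 (-2.49) and Slc4a1 (-1.55) fell, and the sum of the 7 on the array ranged from 1407.8 to 2647.6 in sh14, 1712.3 to 3441.9 in sh133 and 1590.5 to 4029.6 in scr. Among the 4 tested megakaryocyte markers Itga2b rose (1.46) and Pf4 fell (-2.34), and the summed signal of the 5 on the array ranged from 196.4 to 269.7 in sh14, 116.5 to 288.3 in sh133 and 65.8 to 111.8 in scr. The 3' minus 5' difference of the actin control probe sets, a measure of RNA quality, lay between 0.34 (sh133 at 22 h) and 0.63 (scr at 22 h). The part of these measures in the S phase result was not tested.

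Against scr the calls were few. In sh14 minus scr only Rfc4 passed, at -0.96 ± 0.20 (limma adjusted p = 0.0299), and 1.56% of all genes fell. Its measured sh14 minus scr differences at 1, 6, 12 and 22 h were -0.06, -0.38, -0.59 and -0.53. None was as large as the fitted value, which includes the adjustment for run. Differences were below 0 in 45 of the 50 genes with a median of -0.46, which was -0.29 without the run term. The run term itself (run 2 minus run 1) had a median of -0.13 over the 50 genes, with 6 above 0, against 0.00 over all genes. In limma's test of that term 0 of the 50 genes and 0 of all 12673 passed the adjusted threshold. Its unadjusted p was under 0.05 in 1 of the 50 genes and in 694 of all 12673. In the model with that term 15 of the 50 genes, and 2162 of all 12673, had an unadjusted p under 0.05. All sh14 arrays lay below all scr arrays in 7 genes (14.0%, against 8.42% of all genes). The call for Rfc4 was lost without the run term (-0.39, adjusted p = 0.058) and with log2 hours in place of time as a factor (-0.48, adjusted p = 0.457). It was also lost without sh14 at 6 or 12 h, any 1 of the 4 sh133 arrays, scr at 6 h or scr at 22 h. Without scr at 1 h 8 genes passed, where 3.32% of all genes did, and without the run term 17 passed, 16 of them lower, in a fit that called 23.7% of all genes. Sh14 and scr lie in different runs at every time, so the line and the run cannot be told apart except through sh133.

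Ccne2 had the largest difference in that comparison, at -1.49 (adjusted p = 0.18), and its array values are given for that reason, after they were seen. It had 5.61, 4.90, 5.80 and 5.90 in sh14, 5.41, 6.32, 6.59 and 6.10 in sh133, and 5.15, 6.18, 7.13 and 7.13 in scr. At 1 h sh14 was the highest line and at 6, 12 and 22 h it was the lowest. Without the run term the difference was -0.84 and passed (adjusted p = 0.0448).

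In sh133 minus scr none of the 50 genes passed limma's test, and 4.91% of all genes were called. An unadjusted p under 0.05 was found for 7 of the 50 and 2231 of all 12673 genes. The median was -0.07 with 36 genes below 0, and the most negative difference was that of Pole2, a polymerase epsilon subunit, at -0.64 (adjusted p = 0.182). For both hairpins minus scr none passed either, with a median of -0.25, 44 genes below 0 and 2.18% of all genes called. Again 7 of the 50 had an unadjusted p under 0.05, beside 1857 of all 12673 genes. In neither comparison did this share of the 50 genes exceed that of all genes. Without scr at 1 h the counts past the adjusted threshold were 5 and 3, in fits that called 4.73% and 2.04% of all genes. Without the run term they were 5 and 6, where 1592 and 2049 of all 12673 genes were called. These comparisons share the scr arrays with the sh14 comparison and are not independent of it.

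Genes of other replication functions, 52 of 55 on the array, are set beside them from a second list. In sh14 minus sh133 14 of the 52 fell and none rose, with a median of -0.31, beside the 7.11% of all genes that fell. Among them were E2f3, another E2F factor (-0.90), the fork protection gene Tipin (-0.86), the histone chaperone Asf1b (-0.72) and Ticrr, which acts in origin firing (-0.61). Between 1 h and 22 h 8 rose and 2 fell, while 1107 of all 12673 genes rose and 1184 fell. Dck, a deoxynucleoside kinase, rose by 1.29 and Donson, a replication factor, by 0.51, while Cdca7 (-0.47) and the helicase Mcm9 (-0.42) fell. In sh133 minus scr Cdk2, the kinase partner of cyclin E, rose by 0.55 (limma adjusted p = 0.0467), a call that held in 9 of 21 alternatives, with adjusted p-values up to 0.282.

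Genes of G2 phase and mitosis, 51 of 52 on the array, were also lower in sh14 than in sh133, where 18 of 51 fell with a median of -0.42, beside 7.11% of all genes. Kif2c (-0.92) and Ndc80 (-0.89), which act at kinetochores, Hmmr (-0.74) and the checkpoint kinase Ttk (-0.59) were among them. Their steps in time differed from those of the S phase genes. Between 6 h and 12 h the G2 and mitosis median was -0.33 in sh14, with 2 of 51 genes higher at 12 h, against 0.17 and 46 of 50 for the S phase genes of the same arrays. In scr it was 0.08 in that step, against 0.53, and between 12 h and 22 h it was 0.39 with 51 of 51 higher, against 0.15 with 38 of 50. Between 1 h and 22 h 18 of 51 rose over the lines, led by the phosphatase Cdc25b (1.34).

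The calls and the E2F matches are set side by side here. Among the 16 genes with a matching promoter none passed in sh14 minus sh133, with a median of -0.25, against 7 of 25 genes without a match, with a median of -0.27. The other 9 genes have no promoter in the table, and 2 of them passed. No test of the difference was made. In 22 h minus 1 h, 2 of 16 with a match and 3 of 25 without passed. These counts are descriptions of the window searched.

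Other probe sets of the same genes mostly pointed the same way. Of 49 further probe sets of 35 genes, 38 had the sign of the brightest one for sh14 minus sh133. They included all 8 further probe sets of 6 genes that passed there. Gmnn, Gins4 and Pcna have no further probe set, and the 2 of Mcm10 were near the filter (means 1.64 and 1.46). For 22 h minus 1 h 36 had the sign, including all 7 further probe sets of 5 genes that passed. The map neighbours of Gmnn on chromosome 13 were low as well. Among the 20 tested genes nearest to it, 8 fell in sh14 against sh133 and the median was -0.47, and for Mcm10 on chromosome 2 it was 8 of 19 with a median of -0.28. Near Pcna on chromosome 2, 5 of 20 fell with a median of -0.10. For Orc2, Cdc45, Gins4, Rfc4, Fen1 and Rrm1 the neighbours' medians lay between -0.03 and 0.10. Against scr, the 20 neighbours of Pole2 on chromosome 12 had medians of -0.40 in sh14 and -0.30 in sh133, with none called lower. The 20 neighbours of Prim1 on chromosome 10 had medians of 0.30 in sh14 and 0.21 in sh133 against scr. The part of chromosome position in these differences was not tested.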

How the data were processed

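Total RNA was amplified, biotin labelled and hybridised to arrays, per the labels' protocols. The authors deposited log2 signals per probe set, and the submitters' processing notes name RMA for them; its version is not given in the sources used here. This method brings arrays to 1 distribution, so a change in total RNA per cell is not visible. The table holds 45101 probe sets, of which 34958 are annotated to 1 gene, 932 to several and 9211 to none, and 34754 were matched by Entrez identifier to RefSeq genes of GRCm38.p6. The brightest probe set stood for each gene, and a gene was tested if that probe set's mean reached the 40th percentile over all probe sets (log2 1.45).

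The tests used limma 3.58.1 (R 4.3.3), with line, time as a factor and array run as terms, variances moderated across genes, and the Benjamini-Hochberg method over the 12673 tested genes at 0.05. Slopes were fitted on log2 hours within each line, and the slope of a line by itself was added after the data were seen. The number of arrays limits the precision. Array values are printed for genes past the threshold between the hairpins or in a slope difference, the brightest gene of each role and the 4 of smallest p between 22 h and 1 h. The genes and lists were chosen with earlier results of these data known. Python 3.11.15 was used for the tables and figures.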

Additional observations from a re-analysis of the deposited data

Results flagged for a closer look

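Of 54 sets of 4 arrays screened (18 genes named by the rule for printed array values, in each of 3 lines, with Ccne2 and Plcg1 not screened), 1 had an array far from the others. Orc2 in sh133 was 6.82 at 1 h, and the gap to the next array was 0.958 of the whole range, above Dixon's 95% critical value. Chance flags about 1 in 20 such sets, and the 4 arrays of a line also differ in time.

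The hairpin lines differed for 9 genes, by limma's test of sh14 minus sh133. The differences were -1.0 for Gmnn, -0.82 for Mcm10, -0.79 for Cdc45, -0.69 for Fen1, -0.66 for Rfc4, -0.65 for Orc2, -0.64 for Gins4, -0.60 for Rrm1 and -0.45 for Pcna. The scr arrays cancel when the 2 hairpin effects are compared, so these are the calls already given and not a further result. Against scr itself, 1 of the 50 genes passed in sh14 and 0 in sh133.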

How the results depend on the processing

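Each count of S phase genes past the threshold was recomputed under each alternative, and no value changed sign where it was called. Leaving out 1 array at a time gave 0 to 17 genes for sh14 minus sh133, 0 to 8 for sh14 minus scr, 0 to 5 for sh133 minus scr, 0 to 3 for both hairpins minus scr, 2 to 13 for 22 h minus 1 h, 0 to 0 for each slope difference and the sh14 slope, 0 to 2 for the sh133 slope and 0 to 13 for the scr slope. Shares of all genes called in these fits ran from 3.08% to 17.4% for sh14 minus sh133 and 0.686% to 4.38% for sh14 minus scr. They ran from 1.07% to 5.79% for sh133 minus scr and 0.466% to 3.03% for both hairpins. For 22 h minus 1 h they ran from 9.04% to 17.9%, and for the scr slope from 0.253% to 8.66%. Without the run term the counts were 14 for sh14 minus sh133, 17 for sh14 minus scr, 5 for sh133 minus scr and 6 for both hairpins. Run 1 alone gave 24 for sh14 minus sh133. For sh14 minus scr, no filter, the 60th percentile filter and the variance prior that follows the mean gave 2 each, and log2 hours gave 0. The 60th percentile filter gave 1 for sh133 minus scr. The variance prior gave 1 for both hairpins, 11 for 22 h minus 1 h and 1 for the sh14 minus scr slope. The cause of these shifts was not tested. In the other 71 cases that leave out no array the count stayed within 1.5 times. No paired analysis was possible because the replicate numbers only follow deposit order. The sole pairing in the design is by time, and the time term in the fits of line and time comparisons already holds it. The slope fits hold time only as a slope on log2 hours within each line.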
